A study of Gallus gallus with 23 samples.

Results

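F2, F9, SERPIND1, PLG and FGG are 5 genes of blood clotting and clot removal whose protein products the liver secretes into plasma. They were taken by gene symbol from the annotation of a spotted chicken cDNA array, where they occupy 7 of 19200 spots, and the spots of a gene were averaged. All 5 had at least 3 values in every treatment group and so belong to the 9250 features tested, of which 4836 are named genes. Their values were read in the livers of 23 Ross x Cobb broiler cockerels that had carried a hormone pump under the skin for 6 days, from 29 days of age. The CS+T3 group (5 birds) received corticosterone, the main glucocorticoid of birds, at 600 micrograms per kg per day together with triiodothyronine, the active thyroid hormone, at 192 micrograms per kg per day. The CS group (6 birds) received the corticosterone dose alone and the T3 group (6 birds) the triiodothyronine dose alone. The vehicle control group (VC, 6 birds) received the solvent, DMSO and propylene glycol at 50% each, and pumps of every group released 1 microlitre per hour. Each array carried the whole-liver RNA of 1 bird against a common pool of liver RNA from 6 control birds of 5 weeks, in separate dyes. Birds were kept 3 to a pen in 2 rooms, and the labels do not tie a bird to a pen or a room, so neither could be examined as a batch.

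Clotting runs through a chain of inactive proteases made by hepatocytes. Factor IX (F9), once cut, helps to activate factor X, which turns prothrombin (F2) into thrombin, and thrombin cuts fibrinogen, a protein built of alpha, beta and gamma chains (FGA, FGB and FGG), into fibrin. Heparin cofactor II (SERPIND1) inhibits thrombin, and plasmin, made from plasminogen (PLG), dissolves fibrin. Prothrombin and factor IX need a vitamin K-dependent modification before secretion, and fibrinogen is known in mammals as an acute-phase protein whose synthesis rises with interleukin-6 and glucocorticoid.

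The deposited values were taken as log2 ratios of bird to pool, so that 0 means the level of the pool. The labels state neither the log base nor the numerator, and percentages of a group's level given here assume base 2. Bird over pool was taken as the direction because each sample is titled as a bird against the pool. Genes known for hormone induction did not settle it. THRSP, induced by thyroid hormone in chicken liver, was 1.65 higher in CS+T3 than in CS livers (SE 0.32, adjusted p = 0.00801) and stood at 0.86 in T3 against VC without passing (adjusted p = 0.959). DIO1, which thyroid hormone induces in mammals, stood at -0.25 and -0.05 in the same comparisons, and TAT, induced by glucocorticoid in mammals, at -0.37 in CS against VC, none of them past the test. In CS against T3, THRSP stood at -1.06 (adjusted p = 0.0357) and DIO1 at 0.30 (adjusted p = 0.0146), both past the test with opposite signs. TAT stood at -0.23 there without passing. TAT was, however, 0.85 higher in CS+T3 than in CS livers (adjusted p = 0.00522). Of the other genes picked for the direction, GPT2 was 0.82 higher in CS than in VC livers (adjusted p = 0.00511). FKBP5, PCK1 and PDK4 stood at 0.27, 0.16 and 0.15 there without passing. With the pool as numerator, each sign below would be reversed. The values of CS+T3 replicate 1 sat 7 spots early over the longest stretch of the array, those of CS replicate 3 sat 13 spots early, those of T3 replicate 3 were 14 early and those of VC replicate 4 were 4 early. Each was compared with the mean of those other arrays that themselves matched the rest (r over 0.2), with row medians subtracted. Read in place, these 4 arrays correlated with that mean at -0.045 to 0.013, and after being moved to the matching spot at 0.30 to 0.50. A shift over some of the blocks was found on CS+T3 replicate 2 and on T3 replicate 1, where the match stayed weak in place (r of 0.15 over the first 29 blocks). All 6 arrays were realigned before the fit, after which each of the 5 genes had a value in 21 or 22 of the 23 birds.

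CS livers had lower values than VC livers in 4 of the 5 genes. F2, F9, SERPIND1 and PLG stood at 48.2, 58.2, 39.9 and 42.8% of the VC level in CS livers, and in each of them every CS bird lay below every VC bird. With the pool as numerator the same differences would put CS livers 2.07-, 1.72-, 2.51- and 2.34-fold above VC livers. FGG, the fibrinogen gamma chain, did not pass the test. Of all features, 4.08% passed in this comparison and 3.09% passed and were lower, while the groups did not overlap in 4.44%. In bulk liver RNA, fewer cells of a type and less RNA per cell cannot be told apart.

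**Figure D1:**
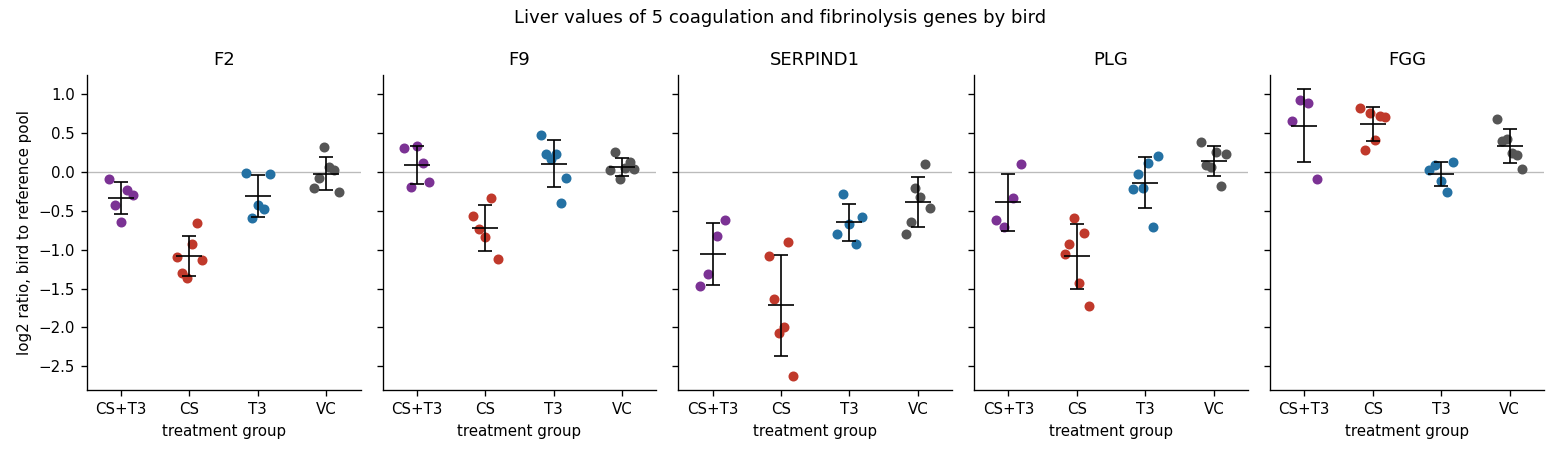
Log2 ratio of each bird to the reference pool (vertical axis) in the CS+T3, CS, T3 and VC groups (horizontal axis) for the 5 genes, with 1 point per bird, a bar at the group mean and whiskers of 1 SD. CS birds lie below all VC birds in F2, F9, SERPIND1 and PLG, and the T3 mean is the lowest in FGG.

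F2 encodes prothrombin, the precursor of thrombin. The lowest, median and highest of the 6 CS birds had log2 ratios of -1.36, -1.12 and -0.65, against -0.26, -0.03 and 0.32 in the 6 VC birds. The groups were separate, and F2 fell by 1.05 in CS livers (SE 0.13, 95% interval -1.33 to -0.77, adjusted p = 0.000239), the third smallest p of the 9250 features. The 5 CS+T3 birds read -0.09, -0.42, -0.64, -0.23 and -0.30, and the 5 T3 birds with a value read -0.02, -0.59, -0.42, -0.48 and -0.03. These ranges overlapped, and neither group reached the CS range, although the lowest CS+T3 bird, at -0.64, lay next to the highest CS bird, at -0.65.

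The order of F2 means was thus CS (-1.08 ± 0.26), CS+T3 (-0.34 ± 0.21), T3 (-0.31 ± 0.27) and VC (-0.03 ± 0.21, SD, n = 6, 5, 5 and 6). CS+T3 stood 0.74 above CS (SE 0.14, adjusted p = 0.00767). That call was lost in 5 of 14 alternatives: as deposited (adjusted p = 0.11), without the 4 most shifted arrays (0.0785) or all 6 (0.108), after quantile normalization (0.38, adjusted p = 0.184) and with equal spread of the arrays (0.54, adjusted p = 0.058). The CS+T3 and T3 means, next to each other in this order, differed by -0.03 (95% interval -0.33 to 0.28), and the T3 and VC means by -0.28 (95% interval -0.57 to 0.01, adjusted p = 0.959). F2 has a second spot, with values on 2 arrays only, CS+T3 replicates 1 and 3, and both of those birds' values are therefore means of 2 spots. On the first spot alone these birds read -0.28 and -0.87, so that CS+T3 replicate 3 fell inside the CS range, and the CS+T3 mean stood 0.66 above CS (adjusted p = 0.0185), an alternative chosen after seeing the data.

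F9 encodes coagulation factor IX, whose loss causes haemophilia B in humans. The 5 CS birds with a value had log2 ratios of -0.56, -0.74, -0.84, -0.33 and -1.13, against a lowest, median and highest of -0.09, 0.04 and 0.25 in VC birds. Every CS bird was lower than every VC bird, and the difference was -0.78 (SE 0.15, 95% interval -1.08 to -0.48, adjusted p = 0.00347). The 5 CS+T3 birds read 0.30, -0.20, 0.34, 0.11 and -0.13, all above the CS birds. CS+T3 exceeded CS by 0.80 (SE 0.15, adjusted p = 0.00767), which put the CS+T3 mean at 0.09 ± 0.24 (SD, n = 5) beside 0.06 ± 0.12 in VC (SD, n = 6). The T3 birds had a lowest, median and highest of -0.40, 0.20 and 0.47, and T3 replicate 5 alone reached into the CS range. After CS, which was lowest, the VC, CS+T3 and T3 means lay within their spread of each other: CS+T3 minus VC was 0.02 (95% interval -0.28 to 0.33) and T3 minus VC was 0.04 (95% interval -0.25 to 0.33).

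SERPIND1 encodes heparin cofactor II, a serpin that inhibits thrombin in the presence of heparin or dermatan sulfate. Its CS values were the most spread of the 5 genes: the lowest, median and highest CS birds read -2.62, -1.81 and -0.90, against -0.79, -0.40 and 0.11 in VC birds. The highest CS bird lay just below the lowest VC bird, and the difference was -1.33 (SE 0.24, 95% interval -1.82 to -0.84, adjusted p = 0.00246). It no longer passed after quantile normalization between arrays (-0.48, adjusted p = 0.204) or with the values as deposited (-1.02, adjusted p = 0.133). The VC mean itself lay below the pool, at -0.39 ± 0.32 (SD, n = 6). The 4 CS+T3 birds with a value read -1.46, -1.31, -0.82 and -0.62, and the 5 T3 birds with a value -0.79, -0.28, -0.67, -0.93 and -0.58. CS+T3 thus lay between CS and the other groups and overlapped with CS, T3 and VC alike. It was 0.66 above CS (SE 0.26, adjusted p = 0.153) and -0.66 from VC (SE 0.26, adjusted p = 0.999), and neither difference passed, the first standing at -0.09 after quantile normalization. In the order CS, CS+T3, T3, VC no 2 neighbouring groups differed past the threshold, although CS differed from both T3 and VC.

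PLG encodes plasminogen, the precursor of plasmin. Its lowest, median and highest CS birds read -1.72, -0.99 and -0.60, against -0.18, 0.16 and 0.39 in VC birds. The groups were separate, with a difference of -1.23 (SE 0.18, 95% interval -1.60 to -0.85, adjusted p = 0.000739). Both PLG spots fell when each was fitted on its own, with differences of -1.20 (SE 0.22, adjusted p = 0.00368) and -1.34 (SE 0.21, adjusted p = 0.00153). They disagreed on some birds: VC replicate 1, the highest VC bird, read 1.01 on the first spot and -0.24 on the second. CS replicate 3 and VC replicate 4 had a value on the first spot only and T3 replicate 3 on the second only. The values of the other birds are means of both spots. The 4 CS+T3 birds with a value read -0.62, -0.71, -0.34 and 0.10, and the 6 T3 birds had a lowest, median and highest of -0.71, -0.12 and 0.21. The CS+T3 birds overlapped with all the other groups and exceeded CS by 0.69 (SE 0.20, adjusted p = 0.0653), short of the threshold. The overlap with CS rested on CS replicate 3. On the first spot alone the lowest CS+T3 bird, at -0.44, lay above the highest CS bird, at -0.60. On the second spot the groups overlapped, with the lowest CS+T3 bird at -1.04 and the highest CS bird at -0.97. The order of means was CS (-1.08 ± 0.42), CS+T3 (-0.39 ± 0.36), T3 (-0.14 ± 0.33) and VC (0.14 ± 0.20, SD, n = 6, 4, 6 and 6), with CS+T3 minus T3 at -0.25 (95% interval -0.67 to 0.17) and T3 minus VC at -0.28 (95% interval -0.66 to 0.09).

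FGG, the fibrinogen gamma chain, went another way. The lowest, median and highest CS birds read 0.28, 0.71 and 0.82, against 0.03, 0.32 and 0.68 in VC birds, and these ranges overlapped (difference 0.28, SE 0.15, 95% interval -0.03 to 0.59, adjusted p = 0.312). The 5 T3 birds with a value read 0.02, 0.09, -0.11, -0.26 and 0.12, the lowest group, and every CS bird lay above every T3 bird. The 4 CS+T3 birds with a value read 0.65, 0.92, 0.89 and -0.09. CS+T3 replicate 5 thus sat with the T3 birds, and the other 3 within or above the CS range. CS minus T3 was 0.64 (SE 0.16, adjusted p = 0.0166). CS+T3 minus T3 was nearly as large, 0.62 (SE 0.17, adjusted p = 0.444), without passing. It passed in 1 of 23 fits with 1 array left out, the fit without CS+T3 replicate 5 (0.85, adjusted p = 0.0139). It kept its call of not passing in all 14 other alternatives. T3 minus VC, -0.36 (95% interval -0.69 to -0.04, adjusted p = 0.959), did not pass either. In the order T3, VC, CS+T3, CS no neighbouring pair differed past the threshold.

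**Figure D2:**
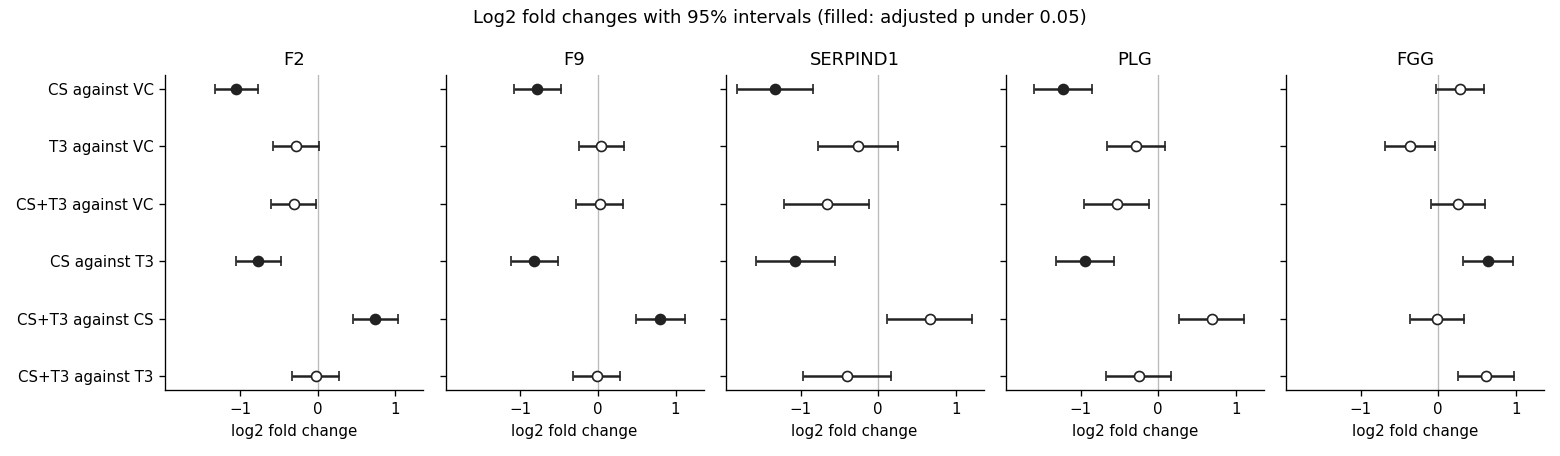
Log2 fold change (horizontal axis, the same scale in each panel) of the 5 genes in 6 comparisons (vertical axis), with 95% intervals as bars and filled points where the adjusted p was under 0.05. The filled points are F2, F9, SERPIND1 and PLG in CS against VC, all 5 genes in CS against T3, and F2 and F9 in CS+T3 against CS.

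Set directly against the T3 birds, the CS birds differed in all 5 genes. In this comparison 7.61% of all features passed, made up of 5.11% of all features that were lower and 2.5% that were higher. F2 was lower by 0.77, F9 by 0.82, SERPIND1 by 1.07 and PLG by 0.94, and FGG was higher, as given above (adjusted p = 0.00235, 0.00199, 0.0115 and 0.00307 for the first 4). F9, SERPIND1 and PLG overlapped between these groups through T3 replicate 5, while F2 and FGG did not overlap, against 4.81% of all features. The PLG overlap also rested on CS replicate 3, which had a value on the first PLG spot only. On either PLG spot alone every CS bird lay below every T3 bird. Features past the test also varied with the processing, from 223 to 1086 over 14 alternatives beside 704 in the main fit. Whether the 5 genes lost calls more often than other features was not tested. With the values as deposited, or without the 4 or the 6 misplaced arrays, 3 of the 5 passed, with SERPIND1 and FGG no longer past the threshold. After quantile normalization F9 alone passed (-0.59, adjusted p = 0.0262), with F2 at -0.43 (adjusted p = 0.114), PLG at -0.60 (adjusted p = 0.0606), SERPIND1 at -0.34 (adjusted p = 0.396) and FGG at 0.63 (adjusted p = 0.088), and FGG was also lost with equal spread of the arrays (adjusted p = 0.0872).

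Triiodothyronine alone changed none of the 5 genes past the threshold, nor did it for any of the 9250 features (0%), of which 440 (4.76%) had an unadjusted p under 0.05 in limma. Differences from VC ran from -0.36 for FGG to 0.04 for F9. Given together with corticosterone it left none of the 5 past the threshold against VC either, where 5 features passed (0.0541%) and 414 (4.48%) had an unadjusted p under 0.05. F2, PLG and SERPIND1 stood at -0.31, -0.53 and -0.66 from VC there, with 95% intervals of -0.60 to -0.02, -0.95 to -0.11 and -1.21 to -0.12. The unadjusted p-values of these 3 genes in limma were 0.0371, 0.015 and 0.0198, and the adjusted ones 0.999, 0.943 and 0.999. Every CS+T3 bird with a value (5 in F2, 4 in PLG and 4 in SERPIND1) lay below the VC mean in these 3 genes. The share of all features with this pattern was not computed. None of the 5 was separate between CS+T3 and VC, against 1.98% of features. The comparisons with VC share the same 6 VC birds.

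Between CS+T3 and CS, F2 and F9 were higher and passed, PLG and SERPIND1 were higher without passing, and FGG stood at -0.02 (95% interval -0.37 to 0.33). In this comparison 2.66% of features passed and 2.26% passed and were higher, and the groups did not overlap in 5.24% of features, as in F2 and F9. Over 14 alternatives, 5 to 673 features passed here, beside 246 in the main fit. None of the 5 genes passed with the values as deposited or without the 6 arrays, and F9 alone passed without the 4 arrays, after quantile normalization and with equal spread of the arrays. PLG passed as well with array weights (0.68, adjusted p = 0.0343) and with block medians subtracted (0.76, adjusted p = 0.0196), the second an alternative chosen after seeing the data. Without CS replicate 5, whose F2, F9 and SERPIND1 values were the highest of the CS birds, 4 passed. Between CS+T3 and T3 none of the 5 passed, as against 4 features in all (0.0432%), with 387 (4.18%) at an unadjusted p under 0.05, and none was separate, against 1.41% of features.

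The T3 effect in birds with corticosterone minus the T3 effect in birds without it was positive in all 5 genes. The median over all features was -0.03. The same CS birds enter this contrast, and their low values in F2, F9, SERPIND1 and PLG raise it. The shared sign is therefore no independent support. The difference was 1.02 in F2 (SE 0.20, adjusted p = 0.0492), 0.97 in PLG (SE 0.27, adjusted p = 0.219), 0.92 in SERPIND1 (SE 0.36, adjusted p = 0.421), 0.76 in F9 (SE 0.21, adjusted p = 0.205) and 0.34 in FGG (SE 0.23, adjusted p = 0.636). F2 alone passed, 1 of 8 features (0.0865%). Its call was lost when any 1 of 20 of the 23 arrays was left out (0.95 to 1.11 over all 23, adjusted p 0.00966 to 0.116), and also on the first F2 spot alone (0.94, adjusted p = 0.0911). After quantile normalization the difference was 0.06 in SERPIND1 (adjusted p = 0.969), and 0.56 to 0.70 in F2, F9, PLG and FGG.

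**Figure D3:**
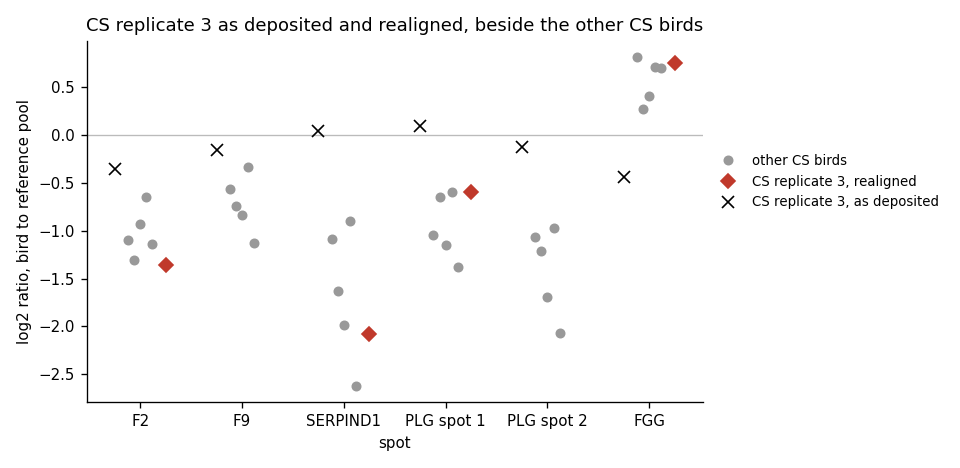
Log2 ratio to the reference pool (vertical axis) of CS replicate 3 as deposited (crosses) and after realignment (diamonds), beside the other CS birds (grey points), for 6 spots of the 5 genes (horizontal axis). The realigned values of F2, SERPIND1, FGG and the first PLG spot lie among or next to those of the other CS birds, and F9 and the second PLG spot have no value after realignment.

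CS replicate 3 shows how realignment changed the values of these genes. As deposited, this bird read -0.35 in F2, -0.16 in F9, 0.05 in SERPIND1, 0.10 on the first PLG spot and -0.43 in FGG, outside the range of the other 5 CS birds in each. After realignment it read -1.36 in F2, -2.08 in SERPIND1, -0.60 in PLG and 0.76 in FGG. These values lay within the range of the other CS birds in SERPIND1 and FGG, just below its lower end in F2, and level with the highest of them on the first PLG spot. The realignment was found across all spots, and treatment groups were not used in it. The mean it was matched to included the other CS arrays, so likeness to them is no independent check. F2, F9 and PLG passed in CS against VC with the values as deposited and with the values realigned.

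The gamma chain is assembled with the other fibrinogen chains into a single protein, and its spot did not follow theirs. FGA, the alpha chain, on 3 spots, had -1.01, -1.43, -1.49, -0.85 and -2.20 in 5 CS birds, against a lowest, median and highest of -0.53, -0.17 and 0.63 in 6 VC birds, and fell by 1.33 (SE 0.26, adjusted p = 0.00477). FGB, the beta chain, had a lowest, median and highest of -2.72, -1.31 and -0.45 in 6 CS birds, against 0.93, 0.06, 0.25, -0.54 and 1.07 in 5 VC birds, and fell by 1.78 (SE 0.41, adjusted p = 0.0148). FGA ranges were separate between CS and VC, as in 4.44% of all features, and FGB ranges overlapped. Both calls were lost with the values as deposited (FGA -1.06, adjusted p = 0.0785, and FGB -1.62, adjusted p = 0.0551) and after quantile normalization (FGA -0.86, adjusted p = 0.0953, and FGB -1.40, adjusted p = 0.0589).

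**Figure D4:**
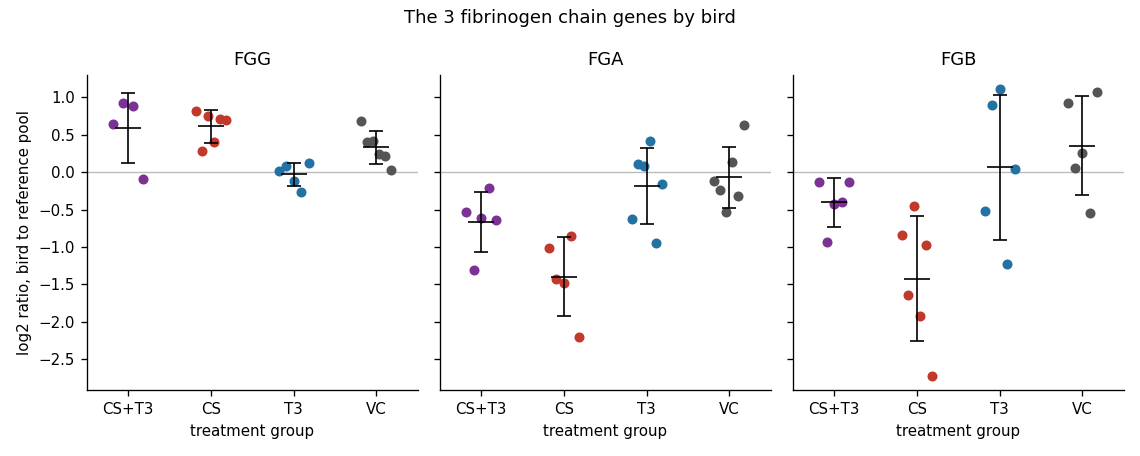
Log2 ratio of each bird to the reference pool (vertical axis) for the gamma, alpha and beta chain genes of fibrinogen in the CS+T3, CS, T3 and VC groups (horizontal axis), with group means and whiskers of 1 SD. CS birds are the lowest group for FGA and FGB and lie above 0 for FGG.

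Within a bird, FGG minus FGA was 1.56 to 2.90 in CS birds, against -0.60 to 0.95 in VC birds, a shift of 1.57. FGG minus FGB was 1.20 to 3.42 in CS birds, against -1.03 to 0.76 in VC birds, a shift of 2.04. Neither difference overlapped between the groups (2-sided exact permutation test p = 0.00217 for each, the smallest p these group sizes allow, and 0.0065 adjusted over 6 such tests). The comparison of chains was chosen after their values were seen in these same birds. The p-values, adjusted over the 6 tests only, do not cover that choice, and neither they nor the lack of overlap give independent support. The share of other gene pairs whose difference did not overlap was not computed. Against T3 birds the shifts were 1.91 (exact p = 0.00794) and 2.30 (exact p = 0.00476), and CS+T3 birds stood 0.88 and 1.07 above VC birds, with overlap (exact p = 0.0476 and 0.0635, adjusted p = 0.0571 and 0.0635).

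Among 4363 named genes with enough arrays to compare, the gene whose values ran most like FGG was GPT2, an alanine aminotransferase (Pearson r of 0.915 and Spearman rho of 0.884 over 20 arrays, and r of 0.548 after the group means were removed). GPT2 was 0.82 higher in CS than in VC livers (SE 0.16, adjusted p = 0.00511). The FGG and GPT2 spots hold the same place, row 12 and column 15, in blocks 32 and 40 of the array. Shared places were common among these genes: a spot each of PLG, F2, SERPIND1 and FGA stood at row 12 and column 13 of blocks 8, 10, 30 and 6, and a PLG spot and the FGB spot at row 12 and column 17 of blocks 23 and 8. FGG has 1 spot only. Whether the spots carry the clones their annotation names was not tested for any of these genes. The points of this and the following correlations share the reference pool and the treatment groups.

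The other 4 genes correlated across all birds, with the differences between groups included. F2 and SERPIND1 correlated at 0.85 over 20 arrays, PLG and SERPIND1 at 0.80 over 21, F9 and PLG at 0.78, F9 and SERPIND1 at 0.76, F2 and PLG at 0.76 and F2 and F9 at 0.73. With the group means removed the correlations were lower, 0.53 for F2 and SERPIND1, 0.52 for F9 and SERPIND1, 0.41 for PLG and SERPIND1, 0.37 for F9 and PLG, 0.21 for F2 and F9 and 0.07 for F2 and PLG. For scale, the 5th and 95th percentiles over all features were -0.38 and 0.40 against F2 on this group-centred measure, and -0.47 and 0.55 against SERPIND1. They were -0.459 and 0.453 against F9, and -0.495 and 0.447 against PLG. No pair lay above the 95th percentile of both its genes. FGG correlated with the 4 at -0.45 to -0.18. With the group means removed these values were 0.03 with F2, 0.34 with F9, -0.08 with PLG and -0.14 with SERPIND1.

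The named genes most like each of the 4 were mostly other genes of secreted plasma proteins. SERPIND1 ran with APOB, the main lipoprotein scaffold (r of 0.922, and 0.888 with group means removed), and with APOH, a phospholipid-binding plasma protein (0.905 and 0.784). PLG ran with ITIH3, a heavy chain of the inter-alpha-trypsin inhibitor family (0.913 and 0.872), and with FGB (0.912 and 0.813). F9 ran with HSD11B1B, annotated as a hydroxysteroid dehydrogenase (0.899 and 0.762), and RARRES2, which encodes the secreted protein chemerin (0.897 and 0.719). F2 ran with A2M, the broad protease inhibitor alpha-2-macroglobulin (0.878 and 0.418), and with ZGPAT, a zinc finger protein (0.845 and 0.505).

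Beyond the 5 genes, 58 other genes of coagulation and fibrinolysis were listed and 27 were measured. In CS against VC, 4 of the 27 fell and 1 rose. Of all features, 3.09% passed and were lower and 0.984% passed and were higher. Those that fell were FGA, FGB, A2M and CPB2, and the median change of the 27 was -0.16, beside 0.03 over all features. A2M, which inhibits plasmin and thrombin among many proteases, had a lowest, median and highest of -1.23, -0.90 and -0.38 in CS birds, against 0.11, 0.24 and 0.37 in VC birds, and fell by 1.06 (SE 0.13, adjusted p = 0.000158). CPB2, the carboxypeptidase that protects fibrin from plasmin, ranged from -0.69 to -0.41 in 5 CS birds, against -0.26 to 0.06 in 5 VC birds, and fell by 0.46 (SE 0.11, adjusted p = 0.0186). KNG1, which encodes kininogen, in mammals a cofactor of contact activation and the source of bradykinin, was the gene that rose. It read -0.07 to 0.68 in 6 CS birds, against -1.02 to -0.16 in 5 VC birds (difference 0.68, SE 0.17, adjusted p = 0.028). A2M, CPB2 and KNG1 ranges were all separate, against 4.44% of all features. With the values as deposited the adjusted p was 0.176 for CPB2 and 0.307 for KNG1. CPB2 also did not pass after quantile normalization (adjusted p = 0.157) or with equal spread of the arrays (0.0881), nor KNG1 without the 4 (0.0852) or the 6 shifted arrays (0.0792). The CPB2 call was also lost without VC bird 1, VC bird 2 or CS bird 4 (adjusted p of up to 0.0603), and the KNG1 call without VC bird 1 or 5 or CS bird 3, 4 or 6 (adjusted p of up to 0.0859).

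**Figure D5:**
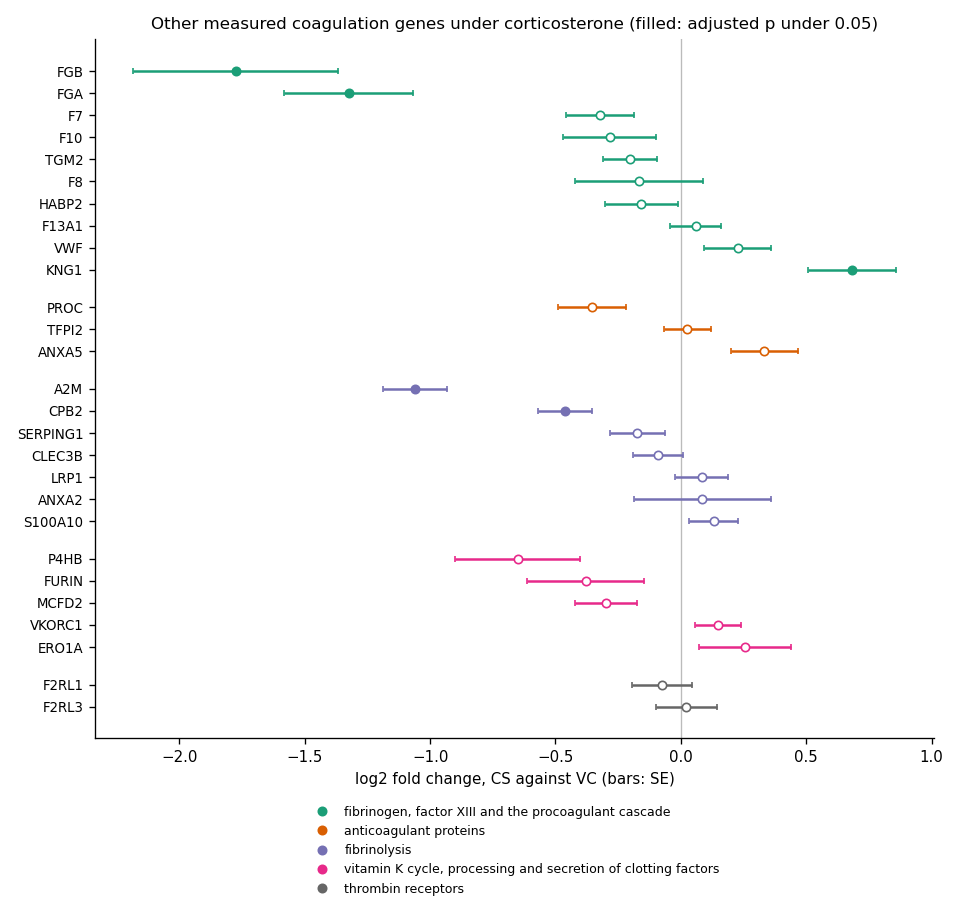
Log2 fold change of CS against VC (horizontal axis, bars of 1 SE) for the 27 other measured genes of coagulation and fibrinolysis (vertical axis), coloured by list and filled where the adjusted p was under 0.05. FGB, FGA, A2M and CPB2 lie to the left of 0 and KNG1 to the right, and the remaining 22 points are open.

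The counts by role that follow leave out the 5 members, of which F2, F9, SERPIND1 and PLG fell in CS livers. By role, 2 of 10 measured genes of the procoagulant cascade and its substrate fell in CS livers and 1 rose, while F7, coagulation factor VII, stood at -0.32 (SE 0.14, adjusted p = 0.194). Of 7 measured genes of fibrinolysis 2 fell, where 3.09% of all features passed and were lower. Besides SERPIND1, the thrombin inhibitor, which fell by 1.33 (adjusted p = 0.00246), 3 anticoagulant genes were measured. None of these 3 passed, with PROC, the gene of the anticoagulant protease protein C, at -0.35 (adjusted p = 0.157). None of 5 genes of the vitamin K cycle and of folding and secretion of clotting factors passed in this comparison. There P4HB, protein disulfide isomerase, stood at -0.65 (SE 0.25, adjusted p = 0.153), and VKORC1, the vitamin K reductase, at 0.15. Neither of the 2 measured genes from the list of thrombin and related protease-activated receptors passed. F2RL1, the larger of the 2 changes, stood at -0.08, and at 0.03 with spots that had a value on under 10 arrays left out.

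Genes known in mammals to regulate clotting genes were read from 2 further lists. Of 4 measured genes of interleukin-6 signalling and of 3 hepatocyte transcription factors, none passed in CS against VC. STAT3, the transcription factor of that signalling, stood at -0.28 (adjusted p = 0.387), CEBPA at -0.15 (adjusted p = 0.53) and HNF4A at -0.12 (adjusted p = 0.537).

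Against T3 birds, CS birds were lower in FGA, FGB, A2M, CPB2 and MCFD2, a chaperone for secretion of factors V and VIII. That makes 5 of 27, where 5.11% of all features passed and were lower, and none of the 27 was higher. FGA differed by -1.21 (adjusted p = 0.00685), FGB by -1.49 (adjusted p = 0.0295), A2M by -0.95 (adjusted p = 0.000272), CPB2 by -0.36 (adjusted p = 0.0457) and MCFD2 by -0.41 (adjusted p = 0.0462). A2M was the 1 gene of the 27 that differed between CS+T3 and CS, where 2.66% of all features passed and 5.24% did not overlap. Its 5 CS+T3 birds read 0.02, -0.15, 0.05, -0.08 and 0.30, all above the highest CS bird, a difference of 0.85 (SE 0.13, adjusted p = 0.00178). CEBPB, a transcription factor of the interleukin-6 list, was also higher in CS+T3 than in CS, by 0.67 (SE 0.18, adjusted p = 0.0429). With the values as deposited, A2M kept its calls in both comparisons, while the adjusted p was 0.0599 for FGA, 0.0597 for FGB, 0.109 for CPB2, 0.258 for MCFD2 and 0.0784 for CEBPB. After quantile normalization it was 0.0909 for FGA, 0.132 for FGB, 0.297 for CPB2 and 0.184 for MCFD2. The loss of 1 array ended the call in 6 of 23 cases for FGB (CS birds 2, 4 and 6 and T3 birds 2, 4 and 6), 15 of 23 for CPB2, 14 of 20 for MCFD2 and 9 of 23 for CEBPB. None of the 27 passed in T3 against VC, CS+T3 against VC or CS+T3 against T3.

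Some markers of cell types also differed between the groups. In CS against VC, 3.09% of all features passed and were lower and 0.984% passed and were higher. Of 11 measured hepatocyte markers, most of them also secreted plasma proteins, 5 fell in CS against VC (APOB, TTR, GC, AMBP and APOH) and 6 did not pass, among them ALB at -0.81 (adjusted p = 0.163), APOA1 at -0.10, and FABP1 and RBP4 at 0.05 each. Their mean per bird ran from -1.13 to -0.34 in CS birds, from -0.39 to -0.01 in CS+T3 birds, from -0.38 to 0.58 in T3 birds and from -0.26 to 0.13 in VC birds. CS replicate 5, the least lowered CS bird in F2, F9 and SERPIND1, also had the highest hepatocyte mean of the CS birds, and CS replicate 6, the lowest in F9, PLG and SERPIND1, had -1.02. The lowest mean was that of CS replicate 4, which read -0.93 in F2, -0.84 in F9, -1.99 in SERPIND1 and -1.42 in PLG. It was the lowest CS bird in none of the 5 genes. CS replicate 3, the lowest in F2, had a mean of -0.71. Of 10 leukocyte markers CYBB and BTK fell in CS livers and 8 did not pass, of 4 erythrocyte markers SLC4A1 rose by 0.36 and 3 did not pass, of 4 bile duct markers TM4SF4 fell and 3 did not pass, and none of 8 endothelial and 10 stellate cell and matrix markers passed. Of the markers of thrombocytes, the nucleated clotting cells of birds, 1 was measured, F13A1, at 0.06. The part of cell makeup in the members' differences was not tested.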

How the data were processed

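The deposited table holds values that were read as log2 ratios of bird to pool, made by the authors from 2-colour spotted arrays, 1 per bird. Per the labels, 20 micrograms of RNA of each bird and the pool carried different dyes, with no dye swap. The log base, numerator, background correction, normalization, spot filter, slide and scan date are not given in the sources used here, and base 2 was taken from the range of values (-3.86 to 4.05). No normalization was added. Arrays held 8925 to 13721 values (28.5 to 53.5% of spots blank), with medians of -0.05 to 0.03.

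The median of each row of spots was subtracted for the search. Each array was compared with the mean of those other arrays that matched the rest at r over 0.2. Lags of up to 40 spots were searched, and an array was realigned where at least 1000 spots matched at a lag with r of at least 0.25. Parts with r under 0.1, and spots that were blank as deposited, got no value. On simulated shifts of 17 arrays the right lag was found for 97.05% of spots or more. The simulation dropped a few spots from arrays that matched in place, and moved blanks along with values. Its lags were smaller than the 4 to 14 spots over the longest stretch of the 4 most shifted arrays. On those arrays blanks matched in place (r of 0.79 to 0.84) rather than at the lag (0.05 to 0.20). Recovery of such shifts was therefore not tested. Realignment was decided after the data were examined.

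Spots were named from the platform annotation (10601 with 1 symbol, 0 with several, 8599 with none). Features with 3 or more values per group entered a model of group means over the 23 arrays (limma 3.58.1, lmFit and eBayes, under R 4.3.3), with Benjamini-Hochberg adjustment over 9250 features and a threshold of 0.05. A fit that lacks a bird's value drops that bird. The median residual SD was 0.221, and the number of arrays limits the precision. In a simulation of CS against VC on 9250 features, 45% of changes of 0.5 and 94% of changes of 1 were recovered. Replicate numbers were not used to pair birds.

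The members and all gene lists were chosen with earlier results of these data known. The text names the 5 members, pathway genes that passed in any comparison, the largest change of each list in CS against VC, and the 2 genes most correlated with each member over at least 18 arrays. HNF4A, F7, VKORC1 and the markers named singly were added after their values were seen. Alternatives covered the placing of values, normalization, array weights, arrays in the fit, the replicate number as a block, filters, spot averaging, the variance model and each array left out.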

Additional observations from a re-analysis of the deposited data

Results flagged for a closer look

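A difference of effects between groups drew attention to F2 and A2M, whose T3 effect was tested in birds with and without corticosterone. For F2, the T3 effect in birds that also received CS minus the T3 effect in birds that did not was 1.02 (SE 0.20, adjusted p = 0.0492), and the 4 group means behind it were -0.34 in CS+T3, -1.08 in CS, -0.31 in T3 and -0.03 in VC. For A2M, the same difference was 0.96 (SE 0.18, adjusted p = 0.0492), with means of 0.03 in CS+T3, -0.82 in CS, 0.13 in T3 and 0.24 in VC. The A2M difference lost its call in 7 of 13 alternatives. These included the values as deposited (0.91, adjusted p = 0.261), the fits without the 4 (0.194) or the 6 shifted arrays (0.149) and quantile normalization (0.0535). The others were the replicate number as a block (0.167), robust empirical Bayes (0.0513) and spots with values on under 10 arrays left out (0.0561). The call was also lost without any 1 of 18 of the 23 arrays (0.88 to 1.05, adjusted p of 0.00915 to 0.109, over all 23). In 47 checks for a single bird far from the others of its group, over groups of 4 to 6 birds, 0 were found; chance alone would give about 1 in 20.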

How the results depend on the processing

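Over 35 pairs of a member and a comparison, 24 kept the same call in every alternative, and 1235 of 1290 refits kept it, but of the 12 pairs that passed the test only 4 kept the call throughout; no called difference changed sign. In CS against VC, 4 members passed, 3 to 4 under 14 alternatives and 4 with each array left out. In CS against T3, the 5 calls became 3 with the values as deposited, 3 without the 4 most shifted arrays, 3 without all 6 shifted arrays and 1 after quantile normalization, and stayed at 5 with each array left out. In CS+T3 against CS, the 2 calls became 0 as deposited, 1 without the 4 arrays, 0 without the 6 arrays, 1 after quantile normalization and 1 with equal spread of the arrays, and were 2 to 4 with each array left out. In CS+T3 against T3, 0 to 1 passed with each array left out. For the interaction, the 1 call became 0 as deposited, without the 4 or the 6 arrays, after quantile normalization, with equal spread, with robust empirical Bayes and on spots with values on at least 10 arrays, and was 0 to 1 with each array left out. Calls without the 4 or 6 arrays come from fewer birds; otherwise the cause was not tested. Features past the test numbered 377 in CS against VC (72 to 803 over all alternatives, each array left out included), 704 in CS against T3 (223 to 1091), 246 in CS+T3 against CS (5 to 675), 5 in CS+T3 against VC (0 to 31), 4 in CS+T3 against T3 (0 to 11) and 8 for the interaction (0 to 37). Over 55 pairs of a comparison and 1 of 13 other genes named, 41 kept the same call in every alternative, as did 1865 of 1985 refits; 13 pairs passed the test and 3 of these, all A2M, kept the call throughout.

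Same-numbered birds were not taken as pairs, since r was not over 0.1 for every number in any pair of groups. It was over 0.1 in 0 of 6 numbers between CS and VC (-0.20 to -0.02), 4 of 5 between CS+T3 and CS (median 0.12, against -0.05 for other numbers), 3 of 5 between CS+T3 and T3 (median 0.10, against 0.01), 2 of 6 between CS and T3 and 0 in the other 2 pairs. With the replicate number as a block, 4, 0, 0, 5, 2, 0 and 0 members passed in CS against VC, T3 against VC, CS+T3 against VC, CS against T3, CS+T3 against CS, CS+T3 against T3 and the interaction, and features past the test in CS+T3 against CS numbered 102. Under the block the named genes that lost a call were F2 and A2M for the interaction (adjusted p = 0.167 each), KNG1 in CS against VC (0.0748), FGB (0.0513) and MCFD2 (0.106) in CS against T3, and CEBPB in CS+T3 against CS (0.104).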
